A study of Mus musculus with 11 samples.

Results

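The 9 genes described here direct the choice of the multiciliated cell fate: Foxj1, Gmnc, Mcidas, Trp73, Myb, E2f4, E2f5, Foxn4 and Gmnn. All peaks of RFX1, RFX2 and RFX3 whose summit lay inside one of these genes or within 50 kb of it were taken, which gave 14 of the 18008 peaks in the 3 lists. The genes were chosen for their role in this programme, with earlier results of these data known. The peaks came from chromatin immunoprecipitation followed by sequencing (ChIP-seq) of wild-type mouse ependymal cells of the OF1 stock, grown and differentiated in culture from brain lateral walls, with the age labelled P0 and the tissue labelled embryonic. All groups shared this genotype and source. The ChIP groups differed in the antibody, and the inputs were labelled separately for each RFX. Each RFX had 2 ChIP samples, and there were 2 inputs for RFX1, 2 for RFX2 and 1 for RFX3, 11 samples in all. The RFX2 antibody lot differed between its samples. How many animals went into a culture and what share of the cells had become multiciliated were not stated in the labels. Peak positions measure no RNA, so the cell type could not be checked against marker expression.

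Ependymal cells carry tufts of motile cilia that move cerebrospinal fluid. In their precursors, release from Notch signalling lets the geminin-related proteins GMNC (also called GEMC1) and MCIDAS form complexes with the E2F factors E2F4 and E2F5, which switch on the genes of centriole amplification and of ciliogenesis. FOXJ1, p73 (encoded by Trp73), MYB and FOXN4 act within this programme, and geminin itself, encoded by Gmnn, antagonises GMNC and MCIDAS. RFX factors are winged-helix proteins that bind the X-box, an element made of inverted half-sites, and are known to cooperate with FOXJ1 at genes of motile cilia.

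RFX peaks lay near 6 of the 9 genes. Over all 21887 protein-coding genes, 52.1% had a summit of at least 1 RFX inside or within 50 kb, so presence in this wide window is common. RFX1 had a summit there for 6 members (44.4% of all coding genes), RFX3 for 5 (46.2% of all coding genes) and RFX2 for 2 (12.5% of all coding genes). Foxj1 and Gmnc had all 3 factors (12.4% of all coding genes), Trp73, E2f5 and Mcidas had RFX1 and RFX3, and Foxn4 had RFX1. Myb, E2f4 and Gmnn had none. The 14 peaks were 6 of RFX1, 2 of RFX2 and 6 of RFX3, and they formed 7 sites. With all lists shortened to 1250 peaks by −log10 q, as many as RFX2 had, RFX1 had 3 members and RFX3 had 2. The shares of all coding genes were not recomputed for the shortened RFX1 and RFX3 lists. The 44.4% and 46.2% of the full lists therefore cannot be set beside these 2 counts.

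**Figure D1:**
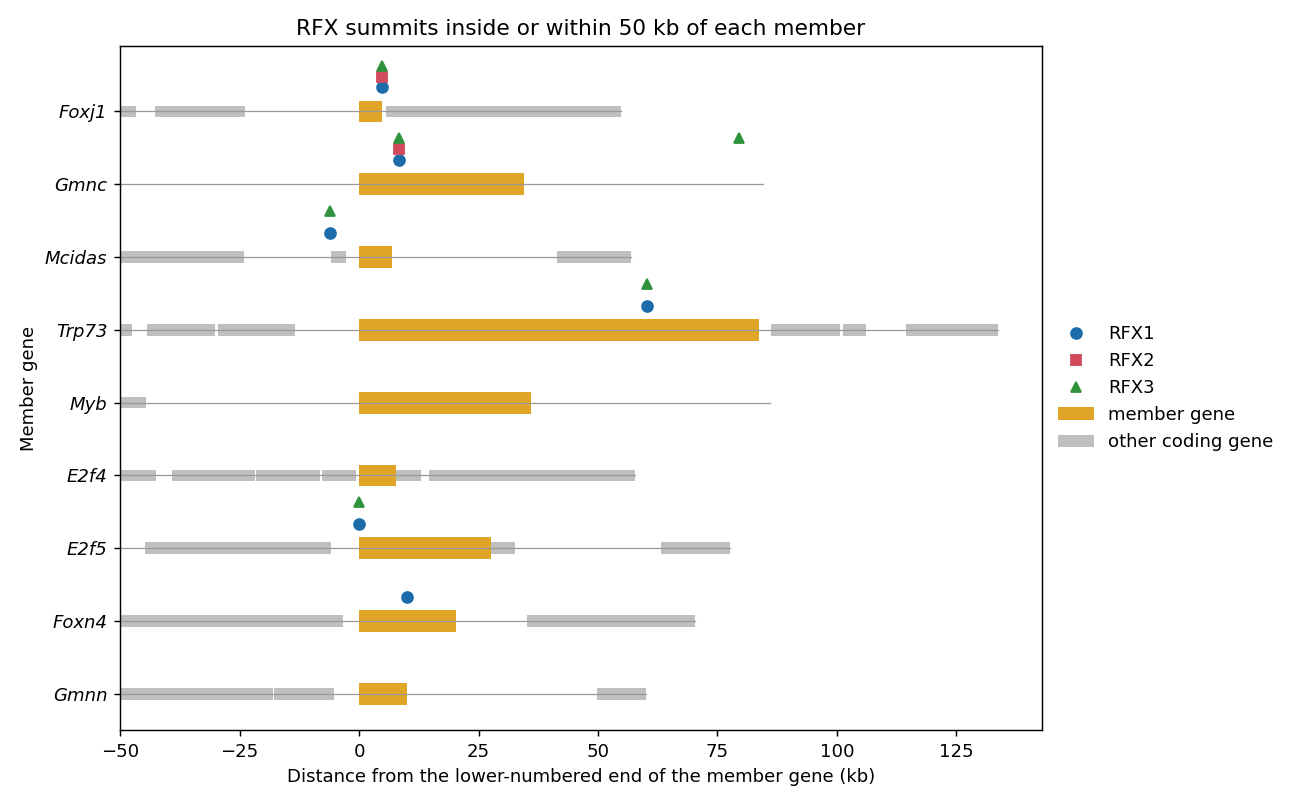
Each row is a member gene (gold bar, lower-numbered end at 0 kb) with other protein-coding genes as grey bars, drawn to 50 kb beyond each end; symbols mark summits of RFX1 (circles), RFX2 (squares) and RFX3 (triangles). Summits of different factors stack over the same place at Foxj1, Gmnc, Mcidas, Trp73 and E2f5, and the rows of Myb, E2f4 and Gmnn hold none.

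Promoter sequences, from 250 bases before to 50 bases after an annotated start, were available in the RefSeq table (GRCm38.p6) for 5 members, Gmnc, Mcidas, Trp73, Myb and Foxn4, with 7 windows in all. Foxj1, E2f4, E2f5 and Gmnn had no entry. The windows were searched on both strands for the X-box half-site GTTGCC, for the looser GTTNCC, of which each GTTGCC is also a match, and for GTTNCC followed by GGNAAC with 0 to 3 bases between. Of all 32851 windows, 12.5% held GTTGCC, 45.3% held GTTNCC and 0.804% held the pair. Among the 1281 windows with an RFX1 summit these shares were 46.3%, 76.3% and 8.67%. Among the 1183 windows with an RFX3 summit they were 47.8%, 76.9% and 9.55%. The window of Ccno is shown as well because the peak near Mcidas lies in it. Capitals mark GTTGCC or its reverse complement GGCAAC and, in Gmnc, GTTACC, a match to the looser form only.
Ccno, chr13:112987552-112987851, plus strand: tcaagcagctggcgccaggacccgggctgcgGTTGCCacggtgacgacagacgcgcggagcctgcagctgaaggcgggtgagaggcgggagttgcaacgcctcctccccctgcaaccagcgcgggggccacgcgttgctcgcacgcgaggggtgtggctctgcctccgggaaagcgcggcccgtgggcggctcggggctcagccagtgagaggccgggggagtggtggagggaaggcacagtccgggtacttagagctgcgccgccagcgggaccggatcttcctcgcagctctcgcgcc
Mcidas, chr13:112993618-112993917, plus strand: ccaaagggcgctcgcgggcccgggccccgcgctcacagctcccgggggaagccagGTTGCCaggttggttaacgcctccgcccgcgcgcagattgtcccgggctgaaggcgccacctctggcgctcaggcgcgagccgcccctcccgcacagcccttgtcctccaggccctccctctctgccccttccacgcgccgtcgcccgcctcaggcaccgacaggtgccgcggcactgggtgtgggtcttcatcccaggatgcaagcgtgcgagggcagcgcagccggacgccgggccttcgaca
Trp73, upstream start, chr4:154139826-154140125, minus strand: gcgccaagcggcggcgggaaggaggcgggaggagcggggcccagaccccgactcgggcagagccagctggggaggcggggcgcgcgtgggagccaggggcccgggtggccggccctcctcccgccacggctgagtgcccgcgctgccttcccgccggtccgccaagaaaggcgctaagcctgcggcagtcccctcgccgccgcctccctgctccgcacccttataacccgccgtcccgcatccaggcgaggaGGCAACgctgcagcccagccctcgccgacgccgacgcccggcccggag
Gmnc, internal start, chr16:26968196-26968495, minus strand: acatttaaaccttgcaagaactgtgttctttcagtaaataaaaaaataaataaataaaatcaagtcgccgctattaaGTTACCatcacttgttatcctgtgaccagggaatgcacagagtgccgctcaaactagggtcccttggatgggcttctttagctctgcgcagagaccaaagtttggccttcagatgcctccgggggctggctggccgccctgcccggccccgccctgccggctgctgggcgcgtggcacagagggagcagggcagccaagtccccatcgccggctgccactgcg
The GTTGCC of Ccno lay almost under the RFX1 and RFX3 summits, whereas the matches of the 3 member windows shown were not covered by a called peak. The other 4 windows, the upstream start of Gmnc, the internal start of Trp73 and those of Myb and Foxn4, held no GTTNCC, and no member window held the pair. A match describes letters, not a bound site.

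Foxj1 encodes the forkhead factor that activates genes of motile cilia. Its gene spans 4796 bp on chromosome 11 (116330704–116335499), and all 3 factors had a summit just inside its higher-numbered end. The RFX1 summit lay 77 bp from that end, in a peak at 116335228–116335605 with a deposited fold enrichment of 14.9 and a −log10 q of 150.4. The RFX2 summit lay 58 bp from it, in a peak at 116335296–116335579 with a fold of 9.87 and a −log10 q of 41.8. The RFX3 summit lay 81 bp from it, in a peak at 116335208–116335545 with a fold of 7.06 and a −log10 q of 101.9. The summits thus fell within 23 bp of each other, and those of RFX1 and RFX3 within 4 bp. They also lay within 1 kb of the lower-numbered end of Rnf157, the RFX1 summit at 923 bp, so the same peaks count for that gene, too. The next summit of any list was 83.0 kb away on one side and 167 kb on the other.

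Foxj1 stood high in the RFX1 and RFX3 lists by −log10 q. Among genes with a summit within 1 kb of an end, ordered by their best −log10 q, it ranked 96 of 1980 for RFX1, 141 of 455 for RFX2 and 74 of 1738 for RFX3. By fold enrichment it did not lead: 7.70% of RFX1 peaks, 50.4% of RFX2 peaks and 55.3% of RFX3 peaks had a higher fold. The RFX3 peak of Foxj1 therefore ranked 256 of 9318 by −log10 q but 5153 by fold. The RFX2 peak was narrow, 284 bp, and 90.7% of its list was wider.

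Gmnc encodes a coiled-coil protein at the top of the multiciliated programme, and its gene spans 34441 bp on chromosome 16 (26957235–26991675). All 3 factors shared a site inside the gene, far from both of its ends. The RFX1 peak (26965386–26965929) had a fold of 24.6 and a −log10 q of 150.3. The RFX2 peak (26965425–26965979) had a fold of 14.1 and a −log10 q of 35.7. The RFX3 peak (26965491–26965763) had a fold of 27.5 and a −log10 q of 109.7. The summits lay 8407, 8423 and 8387 bp from the lower-numbered end for RFX1, RFX2 and RFX3, and within 36 bp of each other. Against the annotated starts, the RFX1 summit lay 26010 bp downstream of the upstream start and 2603 bp downstream of the internal start, whose promoter is printed above. The gene table gives no exons, so whether the site is intronic was not read.

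The Gmnc site was among the higher ones in 2 lists. By fold, the RFX1 peak ranked 50 of 7440 and the RFX3 peak 132 of 9318. Among summits that lay inside a gene and over 1 kb from any gene end, it ranked by −log10 q 46 of 3201 for RFX1 and 86 of 4020 for RFX3. In the RFX2 list it ranked 184 of 521 such summits by −log10 q, and its peak ranked 218 of 1250 by fold. No other protein-coding gene lay within 50 kb of Gmnc, and the nearest other gene end, that of Il1rap, was 236 kb from the RFX1 summit. A second site, of RFX3 alone, lay outside the gene, 44984 bp beyond its higher-numbered end (27036577–27036904). This peak had a fold of 9.80 and a −log10 q of 17.5, exceeded by 56.2% of the list. No coding gene lay between it and Gmnc, and it was the farthest peak that the 50 kb window took in.

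Mcidas, the partner of Gmnc in the geminin family, had no summit inside it or within 1 kb of either end. Its closest peaks lay just upstream of Ccno, a cyclin-like gene of centriole amplification that lies beside it on chromosome 13. Which gene these peaks act on was not tested. The RFX1 peak (112987395–112987785) had a fold of 10.7 and a −log10 q of 95.6. The RFX3 peak (112987462–112987730) had a fold of 3.45 and a −log10 q of 31.6. Their summits were 1 bp apart, 212 and 213 bp upstream of the Ccno start, and 5991 and 5992 bp from the Mcidas gene with Ccno in between. From the annotated Mcidas start, at 112993868, they lay 6278 and 6279 bp upstream. Cdc20b, on the far side of Mcidas, was 47385 bp from the RFX1 summit, so that 3 genes of the programme share this site in the 50 kb window. The nearest RFX2 summit was 639 kb from Mcidas.

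Both promoters of this pair hold a GTTGCC, as printed above, but the called summits sat at that of Ccno. In the Ccno window the half-site began at position 32, counted from the first base printed (112987583–112987588), 2 bp from the RFX1 summit and 1 bp from the RFX3 summit. In the 593 promoter windows with GTTGCC and an RFX1 summit, the median distance between them was 7 bp, and 9 bp in the 565 windows of RFX3. In the Mcidas window GTTGCC began at position 56 (112993673–112993678), 6083 bp from the nearest RFX1 summit. Most windows with the half-site held no called summit: 14.4% of windows with GTTGCC held an RFX1 summit and 13.7% an RFX3 summit, against 2.39% and 2.15% of windows without it. The lack of a called peak does not show that the factor was absent.

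Trp73 encodes p73, a member of the p53 family; its upstream promoter gives the transactivating form and its internal promoter a form without the amino-terminal domain. The gene is the longest of the 9, with 83627 bp on chromosome 4 (154056249–154139875). RFX1 and RFX3 shared a site inside it, between the annotated starts. The RFX1 peak (154116417–154116760) had a fold of 11.7 and a −log10 q of 58.2. The RFX3 peak (154116479–154116726) had a fold of 3.74 and a −log10 q of 19.2. The summits were 8 bp apart. The RFX1 summit lay 23296 bp downstream of the upstream start and 19406 bp upstream of the internal start. The upstream promoter holds a GGCAAC at position 253 of the printed window, just after the start, without a called summit. Within its list the RFX1 peak ranked 1743 of 7440 by −log10 q, and the RFX3 peak 4849 of 9318. The nearest other gene end, that of Wrap73, was 25.8 kb away, and the nearest RFX2 summit was 1269249 bp from the gene.

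E2f5 encodes one of the E2F factors that GMNC and MCIDAS bind. Its gene on chromosome 3 (14578602–14606309) had RFX1 and RFX3 at its lower-numbered end, closer to a gene end than at any other member. The RFX1 peak (14578431–14578723) had a fold of 9.22 and a −log10 q of 38.1, with the summit 15 bp outside the gene. The RFX3 peak (14578428–14578716) had a fold of 4.74 and a −log10 q of 30.7, with the summit 6 bp outside it. The summits were 9 bp apart. These were middling peaks: among genes with a summit within 1 kb of an end, E2f5 ranked 1185 of 1980 for RFX1 and 918 of 1738 for RFX3. The next gene, Lrrcc1, ended 5929 bp from the RFX1 summit, and the nearest RFX2 summit was 6958358 bp from E2f5.

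Foxn4 encodes a forkhead factor known from frog skin to act in multiciliated cells. It had an RFX1 peak alone, near the middle of the gene on chromosome 5 (114254164–114274418). The peak (114263988–114264326) had a fold of 4.60 and a −log10 q of 15.6, and its summit lay 9650 bp downstream of the annotated start. It was the weakest of the RFX1 peaks near members: 83.0% of the list had a higher −log10 q and 94.3% a higher fold. The nearest RFX3 and RFX2 summits were both 115 kb from the gene, beyond Acacb.

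Myb, E2f4 and Gmnn had no peak within 50 kb. Myb encodes a transcription factor that acts early in centriole amplification, and its gene on chromosome 10 (21124930–21160984) was 172 kb from the nearest RFX1 and RFX3 summits and 180 kb from the nearest RFX2 summit. The RFX1 and RFX3 summits lay at the far end of Ahi1, a Joubert syndrome gene, and the RFX2 summit lay beyond it. E2f4 lies among 13 other coding genes within 50 kb on chromosome 8 (105297663–105305370), and none of these brought a summit into the window. Its nearest RFX1 and RFX3 summits were 72.5 kb away, with 8 genes in between or around them, and its nearest RFX2 summit 164 kb away. That RFX2 peak ranked 12 of 1250 by −log10 q. Gmnn on chromosome 13 (24751845–24761937) was just outside the window for RFX1, with a summit at 54692 bp inside Ripor2 that had a fold of 5.78 and ranked 6542 of 7440. Its nearest RFX3 summit was 83.2 kb away and its nearest RFX2 summit 230 kb.

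**Figure D2:**
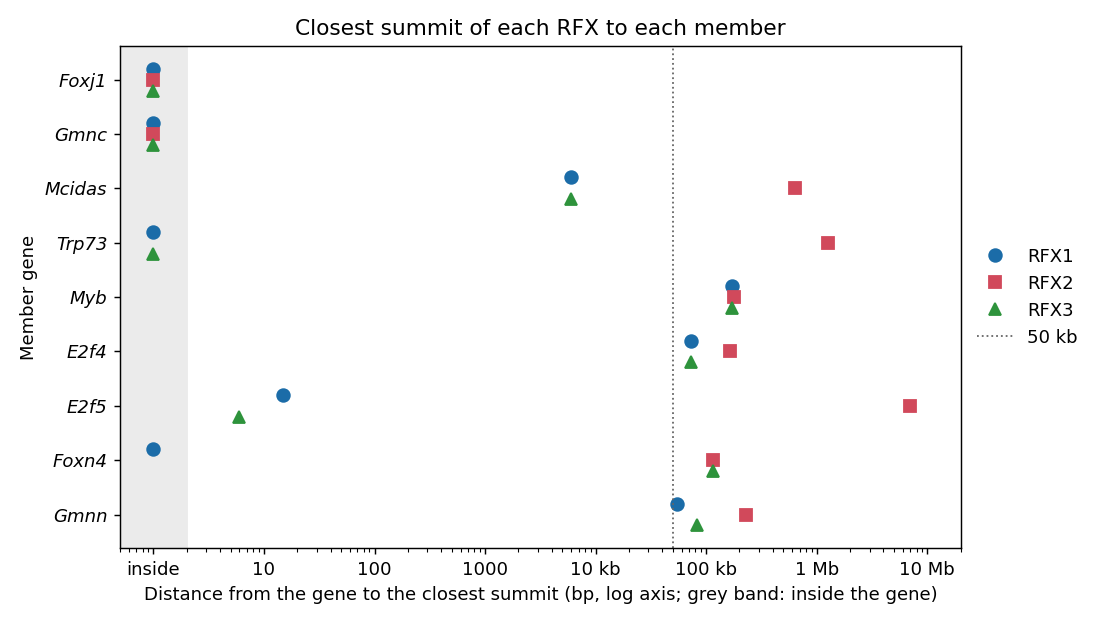
For each member (rows), the horizontal log axis gives the distance in bp from the gene to the closest summit of RFX1 (circles), RFX2 (squares) and RFX3 (triangles); the grey band holds summits inside the gene and the dotted line marks 50 kb. RFX2 lies left of the line at Foxj1 and Gmnc and right of it at the other members.

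Counts at the ends of genes stand beside the shares of all coding genes. Within 1 kb of either end, RFX1 had 2 of the 9 members, Foxj1 and E2f5 (9.05% of all coding genes). RFX3 had the same 2 of 9 (7.94% of all coding genes). RFX2 had 1 of 9, Foxj1 (2.08% of all coding genes). With 1250 peaks in each list E2f5 was lost for RFX1 and RFX3, and each factor had 1 member at a gene end. The shares of all coding genes at that length were not recomputed for RFX1 and RFX3. Inside the gene, RFX1 had 4 members, Foxj1, Gmnc, Trp73 and Foxn4 (14.3% of all coding genes), RFX3 had 3, Foxj1, Gmnc and Trp73 (15.1% of all coding genes), and RFX2 had Foxj1 and Gmnc (3.16% of all coding genes). A member with its summit both inside and near an end, Foxj1, counts in each of these. Gene length bears on such counts: the median member was 20255 bp long and the median coding gene 17169 bp. The median distance from gene to closest summit was 0.015 kb for RFX1, 180 kb for RFX2 and 5.99 kb for RFX3 over the members. Over all coding genes it was 66.8, 498 and 60.1 kb. The lists differ in length, and with 1250 peaks in each the member medians were 115 kb for RFX1, 180 kb for RFX2 and 172 kb for RFX3. The medians over all coding genes were not recomputed for the shortened RFX1 and RFX3 lists. The 66.8 and 60.1 kb of the full lists therefore cannot be set beside 115 and 172 kb. With 9 genes chosen for their role, these shares are a description and were not tested.

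**Figure D3:**
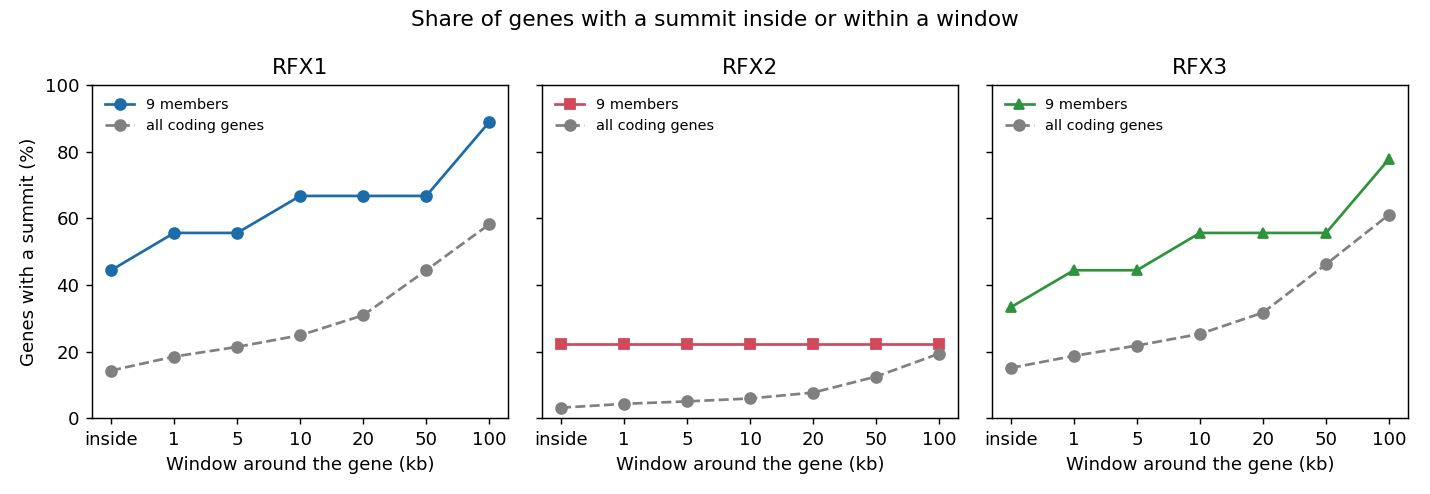
The share of genes (%) with a summit inside the gene or within a window of 1 to 100 kb around it, for the 9 members (coloured lines) and all 21887 protein-coding genes (grey dashed lines), with a panel for each RFX. The member line lies above the grey line at every window shown, but the windows are nested, so the same few members count again in each wider one. For RFX2 the member line stays at 22.2%, which is 2 of the 9, while the grey line climbs to 19.4%. For RFX3 at 50 kb it is 55.6%, 5 of the 9, against 46.2%. From 10 kb on, RFX1 and RFX3 count Mcidas by the peak at the Ccno start. The differences were not tested.

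Where factors met, their summits lay from 1 to 36 bp apart. The RFX1 and RFX3 summits were 4 bp apart at Foxj1, 20 bp at Gmnc, 1 bp at Mcidas, 8 bp at Trp73 and 9 bp at E2f5. Over all 5531 overlapping pairs of RFX1 and RFX3 peaks the median was 16 bp, with quartiles of 7 and 31 bp. RFX1 and RFX2 were 19 bp apart at Foxj1 and 16 bp at Gmnc, against a median of 12 bp. RFX2 and RFX3 were 23 bp apart at Foxj1 and 36 bp at Gmnc. Over all 1228 overlapping pairs of these 2 factors the median was 18 bp, with quartiles of 8 and 32 bp. Of the 7 sites, 2 held all 3 factors (10.9% of all 11236 regions), 3 held RFX1 and RFX3 (38.3% of all regions), 1 held RFX1 alone (16.9%) and 1 held RFX3 alone (33.7%). With 1250 peaks in each list the sites with RFX1 and RFX3 without RFX2 fell from 3 to 0. The shares of all regions were not recomputed at that length.

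**Figure D4:**
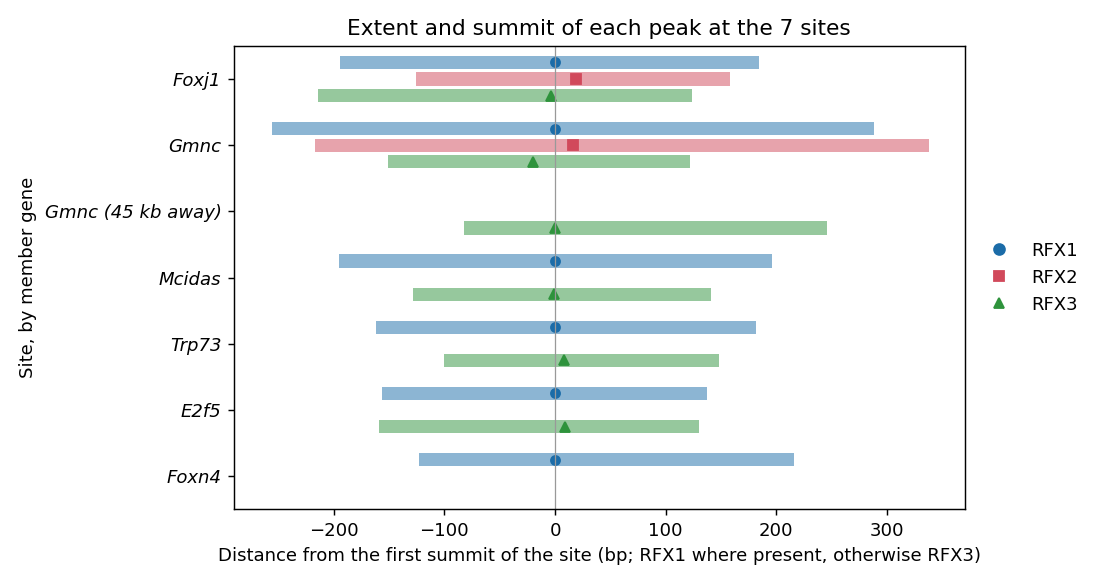
The bars give the extent of each peak in bp around the RFX1 summit of its site (or the RFX3 summit where there was no RFX1 peak), and the symbols mark the summits of RFX1, RFX2 and RFX3. At the 5 sites with more than 1 factor, summits lie within 36 bp of each other.

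Across the 14 peaks, −log10 q and fold gave different orders within each list. Foxj1 ranked ahead of the Gmnc site by −log10 q in the RFX1 list, 152 against 155, but behind it by fold, 574 against 50. The same held in the RFX2 list, with ranks of 349 against 474 by −log10 q and 631 against 218 by fold. By −log10 q, 11 of the 14 were in the better-scoring 50% of their own list and 5 in the best 10%, those of RFX1 and RFX3 at Foxj1 and at Gmnc and that of RFX1 at Ccno. By fold, 8 of the 14 were in the higher 50%. The RFX3 peaks near Mcidas, at Trp73 and at E2f5 had folds of 3.45, 3.74 and 4.74, and 95.1%, 92.5% and 83.7% of the RFX3 list had a higher fold, while 30.7%, 52.0% and 31.8% had a higher −log10 q. In the RFX1 list the peaks at the same sites had a higher-fold share of 23.2%, 17.5% and 32.6%. These values come from separately called lists, so each was ranked only within its own.

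**Figure D5:**
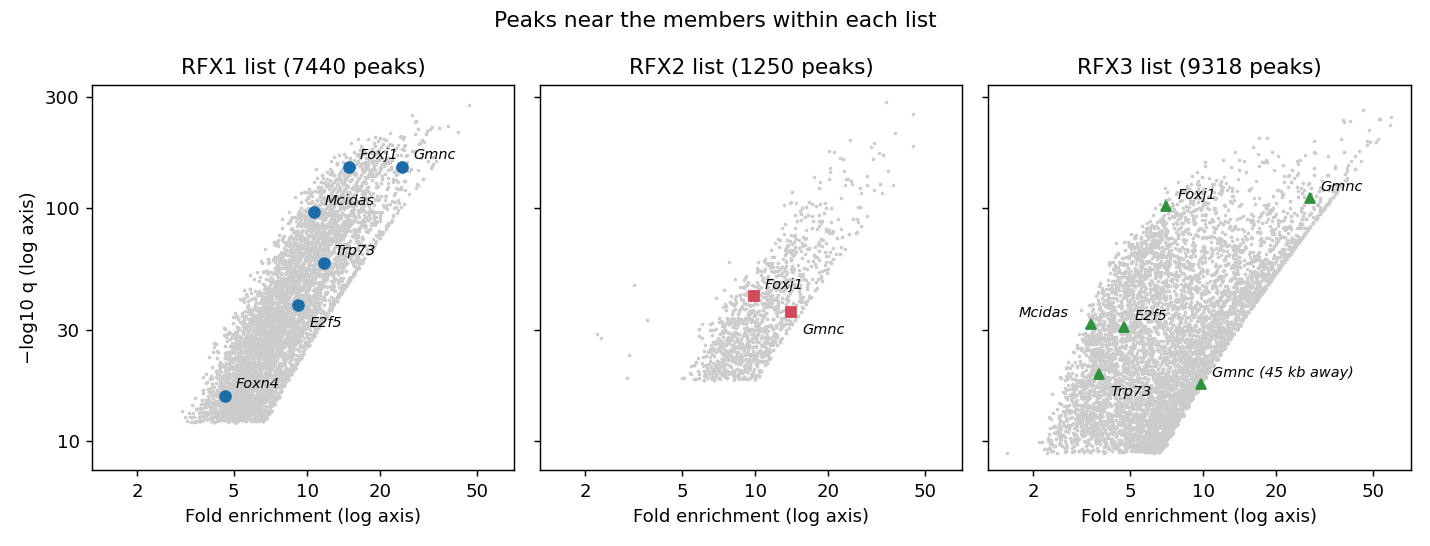
The deposited fold enrichment (horizontal, log axis) against −log10 q (vertical, log axis) for every peak of each list (grey) and for the peaks near members (coloured, labelled by member). Foxj1 and Gmnc have similar −log10 q in RFX1 and in RFX3 but differ in fold, 7.06 against 27.5 in RFX3, and Foxn4 sits near the bottom of the RFX1 list.

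Relatives of the members also had RFX summits in the wide window. Of 15 paralogues from the same families, RFX1 had a summit inside or within 50 kb for 12, RFX3 for 11 and RFX2 for 5, beside 44.4%, 46.2% and 12.5% of all coding genes. Gene length bears on these counts as well, since the window includes the gene itself. The paralogues ran from 10493 bp (E2f1) to 373587 bp (Foxn3), where the median coding gene had 17169 bp. The shares of all coding genes were not matched for length. At gene ends RFX1 had Foxn2, E2f3 and E2f8, RFX3 had Foxj3, Foxn2 and E2f8, and RFX2 had 0 of 15 (9.05%, 7.94% and 2.08% of all coding genes for RFX1, RFX3 and RFX2). E2f8, an atypical repressor of the E2F family, had its RFX1 summit 964 bp from an end with a fold of 14.1. Mybl2, the MYB relative of the cell cycle, had all 3 factors inside the gene, with the RFX1 summit 9352 bp from an end and a fold of 14.3. Foxn1 and E2f1 had no summit within 50 kb.

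Of 11 partners of the E2F and geminin proteins, the pocket proteins, dimerisation partners and MuvB subunits among them, RFX1 was at a gene end of 1, Lin52, and RFX3 and RFX2 of 0, where all coding genes gave 9.05%, 7.94% and 2.08%. Within 50 kb the counts were 8, 7 and 2 for RFX1, RFX3 and RFX2, against 44.4%, 46.2% and 12.5% of all coding genes. The partners ran from 4281 bp (Lin37) to 133094 bp (Rb1), where the median coding gene had 17169 bp. These shares were not matched for gene length either. Tfdp2, a dimerisation partner of E2F proteins, missed the gene end window narrowly, with RFX1, RFX2 and RFX3 summits 1096, 1127 and 1103 bp outside the gene. Cdt1, the replication factor that geminin inhibits, and Lin9 had no summit within 50 kb.

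Of 17 centriole and cell cycle genes that act downstream, RFX1 was at an end of 4, Ccno, Deup1, Cep152 and Ccp110, RFX3 of 3, the same without Cep152, and RFX2 of 0 (all coding genes: 9.05%, 7.94% and 2.08%). Within 50 kb the counts were 13 for RFX1, 11 for RFX3 and 3 for RFX2, where all coding genes gave 44.4%, 46.2% and 12.5%. Again the shares were not matched for gene length, which ran from 2977 bp (Ccno) to 86045 bp (Cdc20b) in this list. Ccp110, which caps centrioles, had its RFX1 summit 86 bp and its RFX3 summit 84 bp from an end, with folds of 5.99 and 2.35. Cep152, a scaffold of centriole duplication, had its RFX1 summit 182 bp from an end with a fold of 4.05. Ccna1, which encodes a cyclin, had all 3 factors inside the gene, the RFX1 summit 1598 bp from an end with a fold of 16.1. Plk4, the kinase that starts centriole assembly, had none within 50 kb, nor had Stil, Plk1 and Cdk1.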

How the data were processed

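The deposited files hold 1 list of reproducible peaks for each RFX, merged over its ChIP samples by the authors, on GRCm38. The tools, per the submitters' processing notes, were Bowtie 0.12.7, MACS2 2.0.10.20130520 and CASAVA 1.8.2. Which control was used and what made a peak reproducible are not stated in the labels. The deposited fold enrichment, read as a ratio of signal to background, the deposited −log10 q and the summit offset were used as they stand. The deposited score, which restates the −log10 q, and 1 further column in each list, the −log10 p, were not used. No read counts were used here, so depth is unknown, and merged lists carry no replicate error and allow no test between samples.

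Genes were protein-coding RefSeq genes of GRCm38.p6. Distances, regions (peaks sharing at least 1 bp) and matches were computed in Python 3.11.15 with pandas 2.3.3; the distance code was tested on 200 simulated peaks. Starts came from the promoter table, and a gene end is either end of the annotated span. All 9 members are named, with neighbours and 3 fixed lists of relatives. The members and lists were chosen with earlier results of these data known. Samples were grouped by title. The planned search of 100 bp around summits needed a genome sequence and was not run. The alternatives tried were shorter lists, other windows and other rules of overlap.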

Additional observations from a re-analysis of the deposited data

How the results depend on the processing

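No paired analysis was possible because the replicates of each RFX are merged into 1 list, and for the same reason no replicate could be left out. Of 64 recomputed counts and medians, 49 stayed within 1.5 times the value reported and 15 did not. The 49 include the RFX2 values at 1250 peaks, which could not move because that list holds 1250 peaks. They also include values that changed within the bound, such as RFX3 peaks within 50 kb, 6 to 4 with the better-scoring 50%. With the better-scoring 50% of each list, the median distance to the closest summit became 5.99 kb for RFX1 and 72.5 kb for RFX3. Sites of RFX3 alone fell to 0. Foxn4 lost its RFX1 peak and Trp73 its RFX3 peak, which left 5 members for RFX1 and 4 for RFX3. The 1 site of RFX1 alone was then the one in Trp73, no longer that in Foxn4. With each list shortened to 1250 peaks, members with a summit at a gene end became 1 for RFX1 and 1 for RFX3, members with a summit within 50 kb became 3 and 2, peaks within 50 kb became 3 and 2, the median distance became 115 and 172 kb, and both sites of RFX1 with RFX3 and sites of RFX3 alone fell to 0; fewer peaks were searched by construction. The 1 site of RFX1 alone was then the one at Ccno. Shares and medians over all coding genes were not recomputed for these shorter lists. With a window of 100 kb the peaks numbered 11 for RFX1 and 10 for RFX3. Leaving out peaks with another gene in between removes those near Mcidas, which left 5 members for RFX1 and 4 for RFX3. Windows of 500 bp or 5 kb at gene ends and of 20 kb around genes, and both other rules of overlap, left the counts of members and sites within 1.5 times. Unknown depth limits what a missing peak can show.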
